A study of Mus musculus with 22 samples.

Results

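The sites described here are the 5769 places in the genome of BV2 cells, an immortalised mouse microglial line, where a PU.1 ChIP-seq peak was called in cells with the empty vector and in cells with the wild-type huntingtin fragment, but in no overlapping position in cells with the mutant fragment. They were taken from the empty-vector (pCDH) peak list as the peaks that shared at least 1 bp with a peak of the wild-type fragment (Nwt) list and none with a peak of the mutant fragment (Nmu) list. They made up 8.03% of the 71846 pCDH peaks and 13.1% of the 44105 pCDH peaks that had a Nwt peak. They were thus selected on the presence or absence of a PU.1 peak in the 3 libraries, so that absence is a description and carries no test.

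Nmu cells carried, by lentiviral transduction, the N-terminus of mutant human huntingtin with 128 glutamines in its repeat, Nwt cells that of the wild-type protein with 15 glutamines, and pCDH cells the same vector with no insert; all 3 were untreated. The vector, pCDH-CMV-MCS-EF1-Puro, carries a CMV promoter, and the cells were lines made by transduction, so every library of a construct comes from cells transduced with it. Each construct had 1 ChIP-seq library for each of 4 antibodies (PU.1, C/EBP alpha, C/EBP beta and the histone mark H3K4me2) and 2 poly(A) RNA-seq libraries at different times, 24 h and a second time, given as 48 h by the labels and as 6 h by the expression table itself. RNA was also measured once each in microglia sorted as CD11b+CD45Low cells from mouse brain with Q175/175 or Q7/7 huntingtin alleles and in bone marrow-derived macrophages (BMDM) of these genotypes.

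PU.1, encoded by Spi1, is an ETS-family transcription factor required for the development of macrophages and microglia. It binds a purine-rich element around GGAA, often beside C/EBP factors, and at sites away from promoters its binding goes with deposition of H3K4me1 and H3K4me2, marks of enhancers. In microglia and macrophages it occupies a large share of the enhancers of the innate immune and phagocytic genes that define these cells.

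The 3 PU.1 libraries differed in depth and yield, and this bears on every comparison of their lists. The Nmu library held 5362384 tags with 25.8% of them in peaks, the Nwt library 6153324 tags with 17.4%, and the pCDH library 7296747 tags with 26.9%. They gave 64744, 53835 and 71846 peaks at thresholds of 6, 6 and 7 tags per peak, in the order Nmu, Nwt, pCDH. The files list no height for any peak (all scores are 1), so whether a missing peak was empty or just under the threshold cannot be read from them. BV2 identity was checked on RNA: all 10 microglia and macrophage markers measured reached 1 RPKM (reads per kilobase of transcript, scaled to library depth) at both times in Nmu and in pCDH cells, and 9 did in Nwt cells. Their summed level was 1663 to 2227 RPKM in Nmu cells, 1065 to 1269 in Nwt cells and 895 to 1320 in pCDH cells. Lyz2 was the largest part of it, with 1070 and 1398 RPKM in Nmu cells, 622 and 566 in Nwt cells and 592 and 470 in pCDH cells. Aif1, Emr1, Lyz2 and Spi1 were above every control library in both Nmu libraries, and Ptprc was below every one. The other markers were mixed, with Csf1r and Fcgr3 below the controls at 24 h. Of the neuron markers, 5 of 5 were at 0 in Nmu and pCDH cells and 4 of 5 in Nwt cells, and 5 of 5 fibroblast markers were at 0 in all 3. The 5 endothelial markers, of which 1 reached 1 RPKM, summed to 8.58 to 12.2 RPKM in Nmu cells, 20.6 to 44.2 in Nwt cells and 19.0 to 44.4 in pCDH cells, and the part of such differences in the results on RNA was not tested.

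Sequence could be read here for promoters only, and 115 of the 5769 lost sites (1.99%) were centred between 250 bases before and 50 bases after a start in the expression table. These windows belonged to 120 genes with no constant site (a PU.1 peak in all 3 constructs) in the same window, and 66 of them matched 1 promoter in the RefSeq table of build GRCm38.p6. The PU.1 core GAGGAAGT, searched on both strands, was present in 11 of the 66 (16.7%), in 133 of 543 promoters with a constant site (24.5%), in 29 of 239 with a site missing from Nwt only (12.1%), and in 760 of all 22862 promoters (3.32%). GAGGAA, which the longer motif contains, was found in 57.6%, 57.5%, 46.0% and 28.4% of these groups in that order, and the C/EBP letters TTGCNNAA in 15.2%, 8.10%, 11.3% and 10.8%. The short core was thus present in nearly equal shares of the promoter windows that held lost and constant sites. The whole window was searched, so a match can lie outside the peak. No difference between these groups was tested, and a match is a description and not evidence of binding.

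The 4 promoters with GAGGAAGT whose lost site stood highest in the pCDH list are shown, 5′ to 3′ on the gene's strand with the core on either strand in capitals. The place of the lost peak is given relative to the start in the expression table. That start can differ from the GRCm38.p6 start that places the sequence, so whether the core lay under the peak was not determined.
Wdr43: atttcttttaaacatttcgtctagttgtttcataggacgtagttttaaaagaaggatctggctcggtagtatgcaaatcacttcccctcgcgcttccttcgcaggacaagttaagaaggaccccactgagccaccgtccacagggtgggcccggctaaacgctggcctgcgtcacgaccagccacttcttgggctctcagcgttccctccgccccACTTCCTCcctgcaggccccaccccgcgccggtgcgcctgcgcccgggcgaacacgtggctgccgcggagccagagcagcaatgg
Noc3l: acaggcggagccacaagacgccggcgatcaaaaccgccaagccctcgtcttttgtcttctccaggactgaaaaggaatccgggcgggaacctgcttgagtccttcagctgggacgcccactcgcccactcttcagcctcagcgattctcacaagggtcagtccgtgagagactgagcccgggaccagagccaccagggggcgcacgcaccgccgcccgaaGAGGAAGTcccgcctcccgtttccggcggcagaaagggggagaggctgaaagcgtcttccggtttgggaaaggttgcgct
Pdzd7: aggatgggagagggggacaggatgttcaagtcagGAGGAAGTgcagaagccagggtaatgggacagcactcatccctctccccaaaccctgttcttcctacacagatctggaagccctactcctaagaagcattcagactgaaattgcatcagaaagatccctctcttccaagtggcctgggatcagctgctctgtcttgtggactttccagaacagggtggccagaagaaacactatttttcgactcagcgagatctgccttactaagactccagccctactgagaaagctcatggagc
Slc35b2: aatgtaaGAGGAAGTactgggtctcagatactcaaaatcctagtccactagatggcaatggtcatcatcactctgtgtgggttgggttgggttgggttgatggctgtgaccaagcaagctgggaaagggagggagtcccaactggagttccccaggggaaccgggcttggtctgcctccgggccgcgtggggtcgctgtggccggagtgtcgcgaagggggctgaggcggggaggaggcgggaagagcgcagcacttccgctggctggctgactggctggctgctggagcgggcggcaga
Wdr43, a ribosome biogenesis factor (chr17:71615965-71616264, plus strand), had its lost peak (mm9, chr17:71965443-71965589) centred at -40 from the start, in the top 9.08% of the pCDH list, and a Nmu peak lay 1 bp away. Noc3l, a nucleolar protein of ribosome assembly (chr19:38819188-38819487, minus strand), had its lost peak (mm9, chr19:38893687-38893833) centred at -32 from the start, and the nearest Nmu peak was 60207 bp away. The promoter of Pdzd7, a scaffold protein of sensory hair cells (chr19:45045723-45046022, minus strand) had a lost peak centred at -212 from the start with the nearest Nmu peak at 2139 bp. For Slc35b2, a transporter of the sulfate donor PAPS in the Golgi (chr17:45563686-45563985, plus strand), these values were -222 and 60 bp. The same call, no overlapping Nmu peak, therefore covered sites with a Nmu peak beside them and sites with none in the neighbourhood.

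Lost sites stood low in the peak lists. The files are ordered, and along the pCDH list a Nwt counterpart was found for 7162 of 7184 peaks in the first of 10 equal parts and for 1535 of 7185 in the last. The median lost site stood 64.4% of the way down the pCDH list (quartiles 47.6% and 80.4%), against 27.5% for constant sites (13.4% and 46.9%). In the Nwt list the medians were 73.4% for lost sites and 36.7% for constant sites. Only 11 lost sites (0.191% of them) stood in the top 10% of the pCDH list, where 7151 constant sites (18.7%) stood. Among pCDH peaks with a Nwt peak, the share with no Nmu peak was 0.154% in the first of these parts, 16.9% in the fifth and 44.95% in the last. The mirror class, pCDH peaks with a Nmu peak and no Nwt peak, behaved alike: 0.168%, 27.4% and 60.9%. That class held 10468 sites, 21.4% of the 48804 pCDH peaks with a Nmu peak, and had its median 64.1% down the list, and its share was above that of the lost sites in each of the 10 parts.

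**Figure D1:**
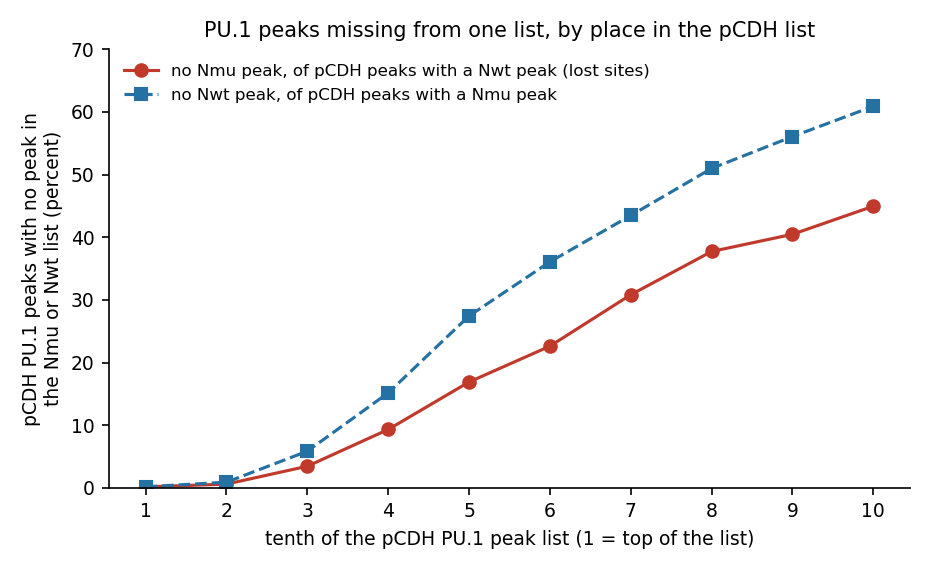
Percent of pCDH PU.1 peaks missing from the Nmu list among those with a Nwt peak (lost sites, circles), and missing from the Nwt list among those with a Nmu peak (squares), in 10 equal parts of the pCDH peak list from its top (1) to its end (10). Both curves climb down the list, to 44.95% and 60.9% in the last part.

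Most lost sites had a Nmu peak somewhere nearby. The median gap to the nearest Nmu peak was 5.21 kb; 171 sites (2.96%) had one within 100 bp, 1102 (19.1%) within 1 kb, and 1020 (17.7%) had none within 20 kb. At the limit of the rule, 29 lost sites lay 10 bp or less from a Nmu peak without sharing a base, and 16 constant sites shared only 1 to 10 bp with one; 98.8% of constant sites had at least 50% of the pCDH peak covered. The members highest in the list were of this edge kind: all 11 in the top 10% of the pCDH list had a Nmu peak within 200 bp, with a median gap of 40 bp, against 16.1% of the 230 members between 20% and 30% down the list and 2.49% of the 3296 in the last 40%. The 17 members in the top 20% of both control lists, among them sites whose nearest start was that of Jun (-53979 bp), Casp8 (-85 bp), Nr1h3 (-1477 bp) or Vcan (-96296 bp), each had a Nmu peak 3 to 151 bp away. Vcan encodes the matrix proteoglycan versican, and Nr1h3 the oxysterol receptor LXR alpha. Leaving out every site with a Nmu peak within 200 bp kept 5480 sites.

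In position the lost sites resembled the constant ones. They lay a median 23.7 kb from the nearest start (constant sites 21.7 kb), 7.07% of both classes within 1 kb of one, and 51.4% were inside a transcript (constant sites 53.0%). Sites missing from Nwt only were closer to starts, with 9.58% within 1 kb. By chromosome, the lost share of pCDH peaks with a Nwt peak ran from 11.7% on chromosomes 6 and 17 to 15.3% on chromosome 19 and 15.95% on X. With members whose centres lay within 20 kb of each other joined, they formed 5082 runs, and 4484 members (77.7%) stood alone. The 2 longest runs held 5 members each. One covered the 5′ part of Rxra, the retinoid X receptor alpha partner of nuclear receptors (mm9, chr2:27527206-27548904, 21.7 kb), where 5 lost and 2 constant sites stood. The other had 1700025G04Rik as its nearest gene (mm9, chr1:153795334-153822848, 27.5 kb) with 5 lost sites and 1 constant site.

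Lost sites carried fewer other peaks than constant sites in every construct. H3K4me2 peaks covered 30.1% of lost sites in Nmu cells (95% exact binomial interval 28.9% to 31.3%), 30.6% in Nwt cells and 32.4% in pCDH cells, while constant sites had 46.8%, 42.8% and 44.3%. C/EBP beta was found at 9.92%, 13.9% and 7.89% of lost sites in Nmu, Nwt and pCDH cells, and at 20.5%, 25.4% and 14.1% of constant sites. C/EBP alpha covered 2.67%, 5.20% and 3.12% of lost sites, against 5.67%, 10.2% and 6.30% of constant sites. Neither H3K4me2 nor a C/EBP factor was called in any construct at 58.3% of lost sites and 40.6% of constant sites. Intervals cover counting error only, and with 1 library per construct and antibody none of these differences between constructs has a replicate or a test. These lists also differed in size. In the order Nmu, Nwt, pCDH there were 42514, 39445 and 39503 H3K4me2 peaks and 47893, 69522 and 35964 C/EBP beta peaks. C/EBP alpha had 9117, 19732 and 11645. For both C/EBP factors the order of the constructs at lost sites was that of list size. Its part in these shares was not tested.

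Within broad parts of the list, the difference in H3K4me2 depended on the construct. These parts do not match place closely. Within the top 30%, parts 1, 2 and 3 of the 10 equal parts held 11, 42 and 230 lost sites. The pCDH peaks with a Nwt peak there, mostly constant sites, numbered 7162, 7104 and 6674. From part 4 to part 6 lost sites rose from 544 to 854, while those peaks fell from 5843 to 3777. From part 7 to part 10 lost sites fell from 931 to 690 and those peaks from 3021 to 1535. The lost share of those peaks thus rose from 30.8% to 44.95%. Lost sites stood lower within each of these ranges. How far place accounts for the differences in H3K4me2 was not tested. In Nmu cells lost sites had it less often in each part of the list: at 53.7% of 283 lost sites and 56.7% of 20657 constant sites in the top 30% of the pCDH list, at 35.5% and 38.0% between 30% and 60%, and at 24.4% of 3296 lost and 29.5% of 5560 constant sites in the rest, which holds most lost sites. In the controls the top 30% differed little, with 53.4% of lost and 52.5% of constant sites in Nwt cells and 54.8% and 54.4% in pCDH cells. Between 30% and 60% the direction turned, with 37.3% of lost and 34.5% of constant sites in Nwt cells and 39.9% and 35.4% in pCDH cells. In the last part the values were 24.3% and 25.2% in Nwt cells and 25.6% and 26.2% in pCDH cells. By distance to a start alone, with no split by list place, the gap was wide away from starts in all 3 constructs. Beyond 1 kb H3K4me2 covered 26.7% of 5361 lost and 44.4% of 35624 constant sites in Nmu cells. In Nwt cells these shares were 27.3% and 40.1%, and in pCDH cells 29.0% and 41.4%. Within 1 kb it covered 74.3% of 408 lost and 79.4% of 2712 constant sites in Nmu cells. There the values were 74.8% and 78.8% in Nwt cells and 77.5% and 82.0% in pCDH cells. Sites missing from Nwt only, which sit as low in the list, had H3K4me2 in 32.4%, 29.7% and 31.1% of cases in Nmu, Nwt and pCDH cells.

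**Figure D2:**
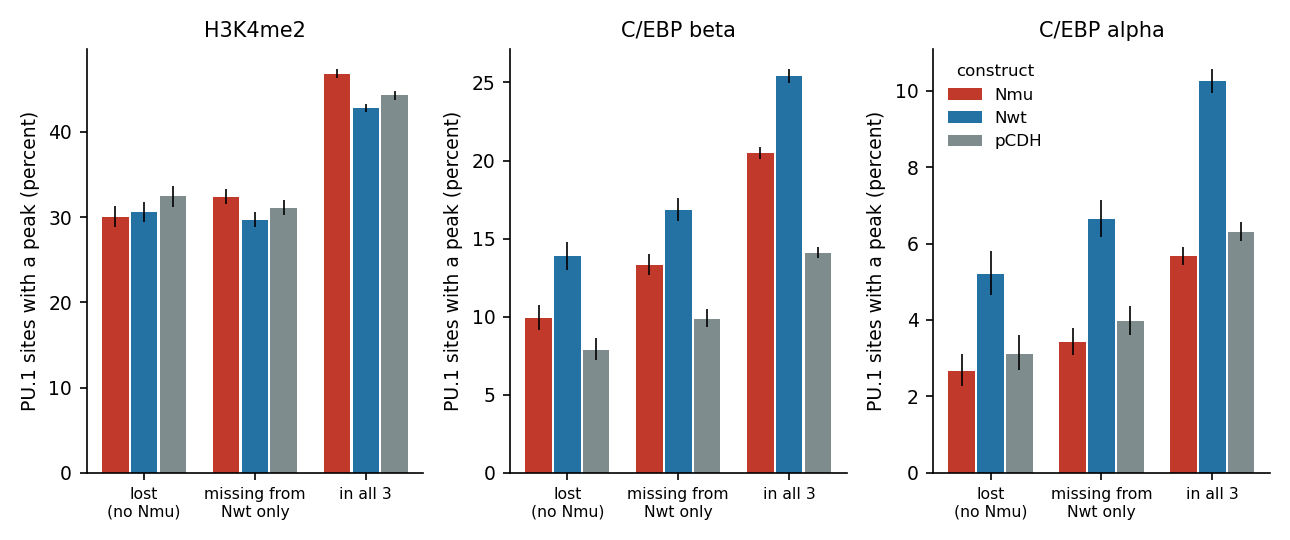
Percent of PU.1 sites overlapped by an H3K4me2, C/EBP beta or C/EBP alpha peak in Nmu, Nwt and pCDH cells, for the 5769 lost sites, the 10468 sites missing from Nwt only and the 38336 sites in all 3 constructs; bars start at 0 and error lines are 95% exact binomial intervals. Lost sites have fewer peaks than constant sites for each antibody, and the order of the constructs for the C/EBP factors is alike in the 3 classes.

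H3K4me2 was missing from Nmu cells alone at a larger share of lost sites than of other PU.1 sites. Of the 1593 lost sites with H3K4me2 in Nwt and pCDH cells, 182 had no H3K4me2 peak in Nmu cells, which is 11.4% (9.90% to 13.1%); at constant sites it was 893 of 14845 or 6.02% (5.64% to 6.41%), and at sites missing from Nwt only 201 of 2826 or 7.11% (6.19% to 8.12%). The difference was there in each part of the list: 12.5%, 11.2% and 11.5% of lost sites in the first 30%, the next 30% and the rest, against 5.50%, 7.04% and 7.14% of constant sites. Among the 4667 members over 1 kb from any Nmu PU.1 peak the share was 13.3%. Absence of H3K4me2 from Nwt or pCDH alone was not more frequent at lost sites: 8.44% of lost and 8.41% of constant sites lacked it in Nwt only, and 4.66% and 5.95% in pCDH only. For C/EBP beta, 47 of 402 lost sites (11.7%, interval 8.72% to 15.2%) lacked the Nmu peak that both controls had, and 8.39% of constant sites did; for C/EBP alpha it was 36.3% and 31.7%. Over the whole lists, 7.56% of pCDH H3K4me2 peaks, 13.5% of C/EBP beta peaks and 37.1% of C/EBP alpha peaks that had a Nwt peak had none in Nmu cells. These shares count peaks of the mark and not PU.1 sites. For C/EBP beta and C/EBP alpha they lay inside the intervals at lost sites, which for C/EBP alpha was 28.5% to 44.7%. The H3K4me2 intervals of lost and constant sites did not overlap, but rest on 1 library each.

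**Figure D3:**
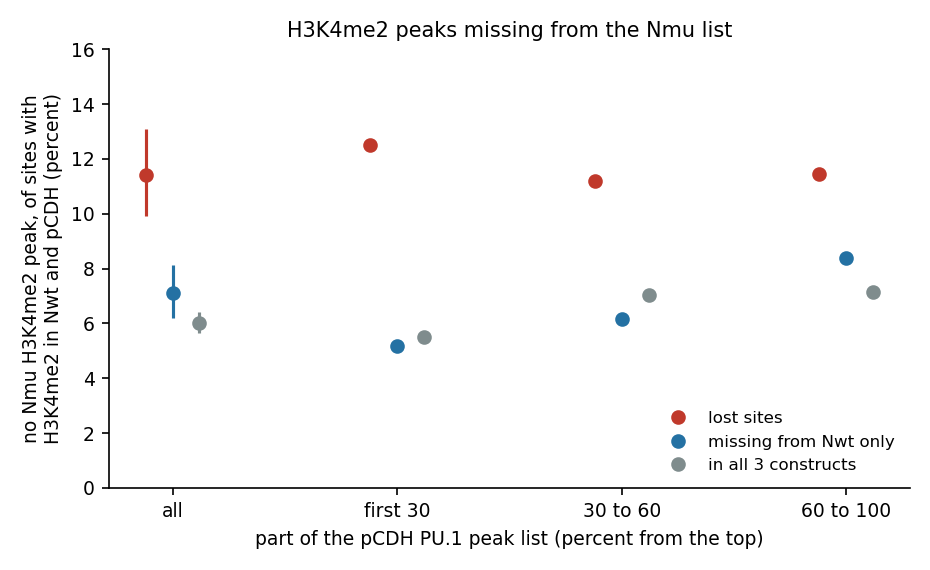
Percent of PU.1 sites with no H3K4me2 peak in Nmu cells, of the sites with H3K4me2 in both Nwt and pCDH cells, for all sites and for 3 parts of the pCDH PU.1 list; vertical lines on the values for all sites are 95% exact binomial intervals. Lost sites lie between 11.2% and 12.5% in each part and above the other classes.

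Among the 182 sites that lacked both an overlapping PU.1 peak and H3K4me2 in Nmu cells alone, those standing highest in the pCDH list had the start of Tmem247, Srrt or Vcan as their nearest, at -3868 bp, -3209 bp and -96296 bp from it. A Nmu PU.1 peak lay 73 bp from the Tmem247 site, 18 bp from the Vcan site and 1150 bp from the Srrt site. Further down were a site at -800 bp from the start of Cyr61, a secreted matrix protein (mm9, chr3:145313677-145313823), one 1.90 kb inside Vhl, which targets hypoxia-inducible factors for degradation (mm9, chr6:113575845-113575991), and one 35900 bp after the start of Slc16a1, a lactate transporter. Their nearest Nmu PU.1 peaks were 317, 477 and 2190 bp away in that order. A site 465 bp inside F13a1 (mm9, chr13:37140545-37140691) and one 5659 bp after the start of Cebpa (mm9, chr7:35909899-35910045) also belonged to the 182. There the nearest Nmu PU.1 peak was 8016 and 3242 bp away. Only 3 members lacked PU.1, H3K4me2 and C/EBP beta peaks in Nmu cells while both controls had all of them, and they lay nearest to Lrrfip1, Senp2 and Fam188a.

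Of the 5769 sites, 2624 had the start of a gene within 20 kb, and 3381 gene symbols had a start that near, 14.9% of the 22736 in the table. These genes seldom lost all their PU.1 peaks: 77.2% also had a constant site within 20 kb, 39.9% had a site called in Nmu cells only, and 355 (10.5%) had no Nmu PU.1 peak left in the window. Lost sites were single for 2903 genes, 478 had at least 2 and 45 had at least 3. Of the 3381, 2089 were expressed highly enough to test (1 RPKM or more in at least 2 of the 6 BV2 libraries), 21% of the 9963 genes tested.

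RNA gives a readout that the choice of the sites did not use. In these bulk libraries fewer cells of a type and less RNA per cell cannot be told apart. The RNA was compared with limma on log2(RPKM + 1) for Nmu against the mean of both controls, with the time of the library as a term and Benjamini-Hochberg adjustment over all 9963 genes. Of the 2089 genes near a lost site, 18 (0.862%) were lower in Nmu cells at adjusted p under 0.05, where the background over all genes was 0.371%, and 19 (0.910%) were higher, with a background of 0.683%. Thus 18 of the 37 genes called lower in the whole table had a lost site within 20 kb. At least 2-fold lower were 82 genes (3.93%; 2.07% of all genes), and at least 2-fold higher 43 (2.06%; 1.82%). Genes near a constant site had 0.374% called lower and 2.19% at least 2-fold lower, genes near a site missing from Nwt only 0.218% and 1.99%, and genes with no lost site 0.241% and 1.57%. These groups overlap, and the shares carry no test. Of the 18 lower calls near lost sites, 10 were of genes under 1 RPKM in both Nmu libraries, which met the expression limit only through the controls, as did 14 of the 37 over all genes; of the 19 higher calls 5 were under 1 RPKM in every control, as were 16 of 68 over all genes. A gene that met the limit through one side alone had to differ, so these calls are descriptions. With 1 RPKM required in all 6 libraries, which itself takes out genes that fell, limma called 1 of 1800 nearby genes lower (0.0556%) and 4 of 8509 of all genes (0.0470%). With a pseudocount of 5 the count of lower calls near lost sites was 0 (5 of all genes), and with no filter on low values it was 0 of all genes.

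**Figure D4:**
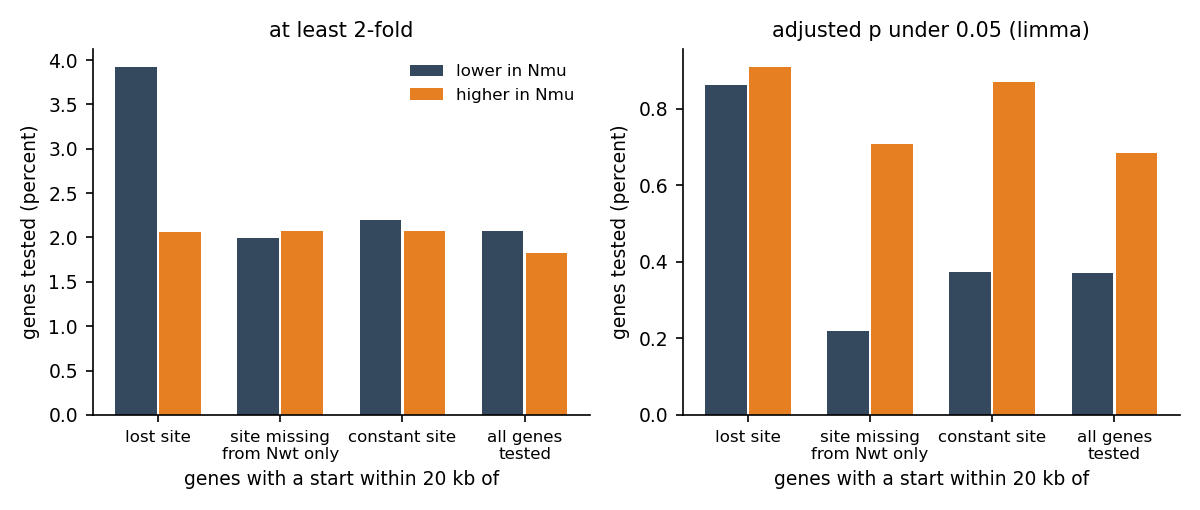
Percent of the genes tested that were lower or higher in Nmu than in control BV2 cells, at least 2-fold on the log2(RPKM + 1) scale (left) and at limma adjusted p under 0.05 (right), for genes with a start within 20 kb of each class of PU.1 site and for all 9963 genes; bars start at 0, and a gene may stand in several classes. The share at least 2-fold lower is 3.93% near lost sites and between 1.99% and 2.19% in the other groups.

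The bulk of the genes near lost sites moved little. Their median log2 fold change was -0.03, against -0.004 over all genes, and the medians differed in opposite ways at the 2 times: at 24 h -0.03 near lost sites and 0.05 over all genes, at the second time -0.01 and -0.03. At least 2-fold lower at 24 h were 179 of the 2089, and 64 at the second time, against 534 and 270 of all 9963 genes. As a share of the genes tested, the nearby genes were thus well above all genes at 24 h only. At the second time the 2 shares were close, and each time has 1 Nmu library. Below both controls at both times were 26.1% of the nearby genes and 22.5% of all genes, and above both 21.5% and 23%. The count of calls depended on single libraries: 433 nearby genes were called lower without the Nmu library of 24 h (20.9%, all genes 20.8%), 608 without that of the second time (29.4%, all genes 22.8%), 56 and 83 without the Nwt library of the first or second time, and 36 and 83 without the pCDH library of the first or second time. Removing an Nmu library leaves 1, which is then assumed to vary like the controls. The share called lower exceeded the background in these alternatives, barely so without the Nmu library of 24 h.

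Against each control alone there were few calls: 1 nearby gene lower and 7 higher in Nmu than in Nwt cells (background 0.0301% and 0.241%), and 3 lower and 8 higher in Nmu than in pCDH cells (0.0401% and 0.261%). Between Nwt and pCDH cells limma called none of the 2089 (background 0%), and 2 of them passed an unadjusted p of 0.05, as did 20 of all genes. The comparisons with Nwt and with pCDH share the Nmu libraries.

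Smaller sets of these genes gave few calls. Of the 147 tested genes with a lost site and no Nmu PU.1 peak within 20 kb, limma called 0, 25 (17.0%) passed an unadjusted p of 0.05 where 21.5% of all genes did, 2.72% were at least 2-fold lower, and the median log2 fold change was -0.08. The 316 genes with at least 2 lost sites had 2 called lower and 2 called higher (0.633% each) and 5.06% at least 2-fold lower. The 87 genes near a site that also lacked H3K4me2 in Nmu cells had 1 called lower (1.15%) and 0 called higher, 5.75% at least 2-fold lower and a median of -0.13. Of 334 genes with a lost site within 1 kb of the start, 3 were called lower (0.898%) and 2 higher (0.599%), and the median was 0.04. Over all genes 0.371% were called lower, 0.683% higher and 2.07% at least 2-fold lower. An unadjusted limma p of 0.05 was passed by 29.1% of the 316 genes, 41.4% of the 87 and 24.3% of the 334. It was passed by 24.5% of all 2089 nearby genes, in either direction, against the 21.5% of all genes. The sets overlap, and these shares were not tested.

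The named genes include 14 that passed the test, and the settings mattered for them: without a filter on low values 13 of the 14 no longer passed (Il1a did), and with a pseudocount of 5 the 8 genes Ankrd37, Tmem26, St8sia4, Mitf, Irg1, Id2, Ccl3 and Cebpd did not. Ankrd37, Tmem26, Mitf and Id2 also missed the threshold without the time term, and these 4 and Cebpd did so after quantile normalization. Of the 8 that reached 1 RPKM in all 6 libraries, Irg1, Id2, Ccl3 and Mitf no longer passed when this was required, and Id2 also missed with a pseudocount of 0.1 or with the longest transcript per gene. Leaving out any 1 library raised the number of calls near lost sites. That the named genes kept their calls there, where a value could be had, therefore says little about them. Pilrb2 and Cebpd had no value without an Nmu library. Ankrd37, Tmem26 and St8sia4 met the expression limit only through the control libraries, and Pilrb2 and Cebpd only through the Nmu libraries, so their calls are descriptions and their p-values are not given.

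Genes lower in Nmu cells were led by Ankrd37, an ankyrin-repeat protein known as a target of hypoxia-inducible factor. Ankrd37 had 0.162 and 0.207 RPKM in Nmu cells at 24 h and the second time, against 25.65 and 6.25 RPKM in Nwt cells and 20.05 and 6.365 RPKM in pCDH cells. Both Nmu libraries lay far below all 4 control libraries, and the log2 fold change, on log2(RPKM + 1) as for every gene here, was -3.47 ± 0.41 (SE, n = 2 libraries per construct). The lost site lay at -6087 bp from the start (mm9, chr8:47091219-47091365), 195 bp from a Nmu peak, and 3 Nmu PU.1 peaks were within 20 kb. Of the hypoxia and glycolysis list, 8 of 22 genes had a lost site (36.4%). Of the 8 limma called Ankrd37, which was under 1 RPKM in both Nmu libraries, and no other. In the whole list it called 2 of the 21 tested genes lower, against 0.371% of all genes. The median log2 fold change was -0.55 for the 8 and -0.61 for all 21. The median near lost sites was thus not below that of the list.

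Egln3, a prolyl hydroxylase that marks hypoxia-inducible factors for degradation, belonged to that list and had its lost site in the promoter (mm9, chr12:55304878-55305024, centred at -89 from the start, 1832 bp from a Nmu peak). Its promoter in RefSeq GRCm38.p6 (chr12:54203825-54204124, minus strand) is shown with the short core GAGGAA on either strand in capitals, as it holds no GAGGAAGT.
Egln3: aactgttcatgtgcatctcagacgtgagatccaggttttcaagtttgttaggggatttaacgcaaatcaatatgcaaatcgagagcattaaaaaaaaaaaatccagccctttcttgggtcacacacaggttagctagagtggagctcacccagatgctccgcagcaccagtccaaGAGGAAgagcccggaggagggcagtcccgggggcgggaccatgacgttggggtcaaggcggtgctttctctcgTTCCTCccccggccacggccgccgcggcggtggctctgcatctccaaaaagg
The RNA was 4.09 and 4.87 RPKM in Nmu cells, against 20.1 and 8.40 RPKM in Nwt cells and 19.7 and 8.40 RPKM in pCDH cells. It was below the controls at both times, and the log2 fold change of -1.36 ± 0.32 did not pass (limma adjusted p = 0.11). H3K4me2 covered the site in all 3 constructs.

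F13a1, the A subunit of coagulation factor XIII and a marker of alternatively activated macrophages, had 2 lost sites, one of them the site at 465 bp with H3K4me2 in both controls only. Its RNA was 0.113 and 0.024 RPKM in Nmu cells, 11.2 and 2.27 RPKM in Nwt cells and 9.97 and 2.13 RPKM in pCDH cells. Nmu cells were close to 0 while the controls were not, but the change of -2.51 ± 0.40 stayed above the threshold (limma adjusted p = 0.0649). Mrc1, the mannose receptor and another gene of the alternative activation list, had 34.2 and 32.5 RPKM in Nmu cells, against 87.4 and 37.1 RPKM in Nwt cells and 80.2 and 34.1 RPKM in pCDH cells. There the libraries of the second time nearly met (log2 fold change -0.70 ± 0.28, limma adjusted p = 0.235). Of the 17 genes of the list 5 had a lost site, and none of the 5 was called in either direction.

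Fabp4, a fatty acid carrier of macrophages and adipocytes, had a single lost site at -4883 bp from its start (mm9, chr3:10213387-10213533), no constant site, and no Nmu PU.1 peak within 33019 bp of that site. Its RNA was 6.88 and 12.4 RPKM in Nmu cells, against 91.5 and 34.6 RPKM in Nwt cells and 78.7 and 30.2 RPKM in pCDH cells (log2 fold change -2.38 ± 0.48, limma adjusted p = 0.0894). Rasgrp3, an activator of Ras and Rap1, had 2 lost sites, one of them 81 bp after a start, with H3K4me2 and C/EBP beta in all 3 constructs, among 11 constant sites. It measured 2.58 and 7.78 RPKM in Nmu cells, against 33.3 and 20.7 RPKM in Nwt cells and 31.1 and 18.6 RPKM in pCDH cells (-2.22 ± 0.45, limma adjusted p = 0.0893). Both genes were below every control library without passing the test.

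St8sia4, Tmem26 and Mitf were called lower and had low absolute levels, the first 2 under 1 RPKM in both Nmu libraries. St8sia4, a polysialyltransferase, had 0.229 and 0.533 RPKM in Nmu cells, 4.69 and 4.35 RPKM in Nwt cells and 4.36 and 3.78 RPKM in pCDH cells (log2 fold change -1.94 ± 0.17). Tmem26, a transmembrane protein, stood at 0.318 and 0.35 RPKM in Nmu cells, 7.51 and 3.599 RPKM in Nwt cells and 6.45 and 3.21 RPKM in pCDH cells (-2.15 ± 0.24). Mitf, a transcription factor of melanocytes, osteoclasts and macrophages, with 2 lost sites among 12 Nmu peaks, had 1.83 and 1.61 RPKM in Nmu cells, 5.95 and 4.87 RPKM in Nwt cells and 5.75 and 4.685 RPKM in pCDH cells (-1.21 ± 0.14, limma adjusted p = 0.0392). In each of these the Nmu libraries lay below all 4 controls. Other genes called lower included Gpd1, Scel, Fcrlb, Rgcc, Kcnn4, Ccng2, Nr4a1, Trove2, Rtkn, Scara5, Zfp120, Dmxl1 and Plekhg5, with log2 fold changes between -1.89 and -1.07. The 10 of 18 lower calls under 1 RPKM in both Nmu libraries included several of these beside Ankrd37, St8sia4 and Tmem26. Such genes met the expression limit only through the controls, so calls in this list are descriptions. Olfm1 and Ptgs1, the cyclooxygenase-1 gene, were below the controls at both times (log2 fold changes -2.06 and -1.94) without passing (limma adjusted p = 0.0825 and 0.139).

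Genes near lost sites that were higher in Nmu cells included receptors and inflammatory mediators. Marco, a scavenger receptor of macrophages, had 97.0 and 59.0 RPKM in Nmu cells, against 0.966 and 2.29 RPKM in Nwt cells and 0.64 and 1.05 RPKM in pCDH cells (log2 fold change 5.15 ± 0.31, limma adjusted p = 0.00927). Its lost site lay 9934 bp inside the gene, 79 bp from a Nmu peak, with 7 Nmu peaks and 5 constant sites within 20 kb. Pilrb2, an activating paired immunoglobulin-like receptor, had 10.4 and 19.6 RPKM in Nmu cells and at most 0.951 in any control (3.28 ± 0.15), so it met the expression limit only through the Nmu libraries. Pilrb2 has close paralogs, so its counts are uncertain. These were the 2 of 6 phagocytic and scavenger receptor genes near a lost site that limma called higher. Of the 20 tested genes of that list 7 rose and 1 fell, against 0.683% and 0.371% of all genes.

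Several cytokine genes near lost sites rose in Nmu cells. The cytokine and mediator list had 9 of 29 genes with a lost site. Of the 8 tested 4 rose and none fell, against 7 that rose of the 19 tested in the whole list. Their median log2 fold changes were 1.53 and 0.98. By the same call 0.683% of all genes rose and 0.371% fell. Il1a had 66.4 and 34.3 RPKM in Nmu cells, 5.60 and 2.09 RPKM in Nwt cells and 4.485 and 1.78 RPKM in pCDH cells (log2 fold change 3.54 ± 0.14, limma adjusted p = 0.0042). Il1b had 9.73 and 10.1 RPKM in Nmu cells, against 1.73 and 1.38 in Nwt cells and 1.501 and 1.895 in pCDH cells (2.06 ± 0.16, limma adjusted p = 0.0139). Both encode interleukin-1, the early pyrogenic cytokine. Tnf had 15.9 and 18.3 RPKM in Nmu cells, against 3.04 and 3.11 in Nwt cells and 1.855 and 3.30 in pCDH cells (2.26 ± 0.18, limma adjusted p = 0.0139). Ccl3, a chemokine for monocytes, had 208 and 160 RPKM in Nmu cells, at most 45.5 in Nwt cells and at most 41.5 in pCDH cells (2.35 ± 0.25, limma adjusted p = 0.0361). Each of these genes kept 6 to 9 constant sites within 20 kb beside its single lost site, and no Nmu library overlapped a control library.

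Other genes that rose included Irg1, the enzyme that makes itaconate in activated macrophages, with 25.7 and 68.0 RPKM in Nmu cells and at most 2.88 in any control (log2 fold change 3.85 ± 0.43, limma adjusted p = 0.0377). Slpi, a secreted protease inhibitor, had 26.8 and 26.7 RPKM in Nmu cells and at most 4.71 in any control (2.58 ± 0.18, limma adjusted p = 0.0118). The other genes called higher were Rhoc, Slfn2, Tmem176a, Tmem176b, 1300002K09Rik, Ceacam19, Fyb, Aoah and Id3, between 1.13 and 2.27. The 5 of 19 higher calls under 1 RPKM in every control included some of these beside Pilrb2 and Cebpd. Such genes met the expression limit only through the Nmu libraries, so calls in this list too are descriptions.

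**Figure D5:**
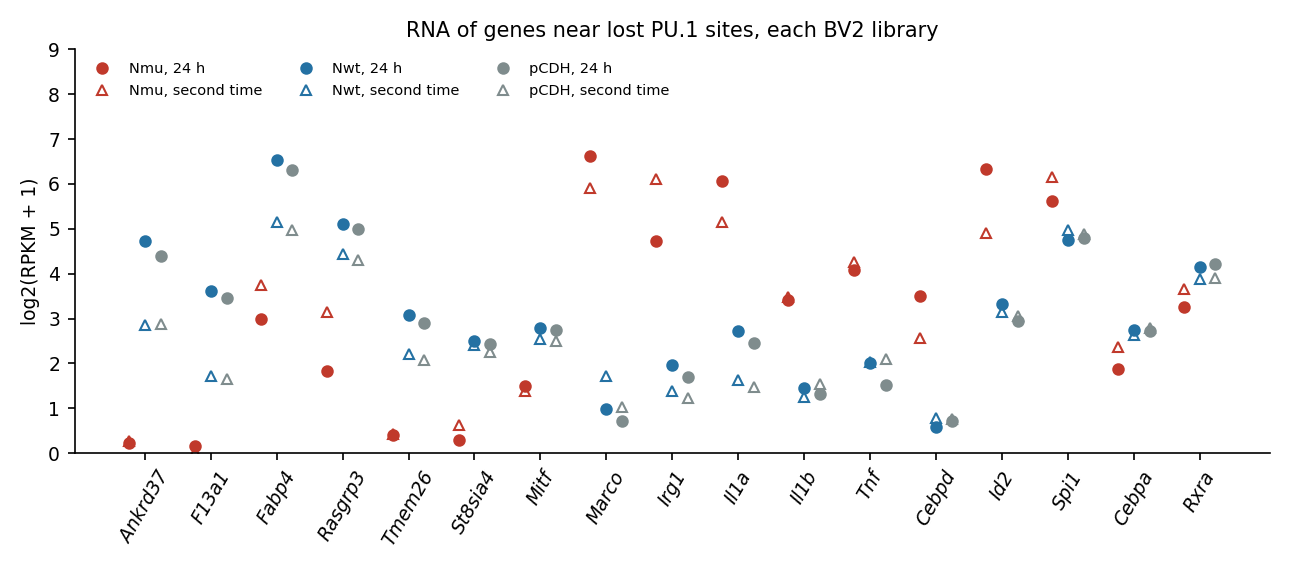
RNA of 17 genes near lost PU.1 sites as log2(RPKM + 1) in each BV2 library, Nmu, Nwt and pCDH from left to right for each gene, with filled circles for 24 h and open triangles for the second time. Both Nmu points lie below all control points for Ankrd37 through Mitf, above them for Marco through Spi1, and below them for Cebpa and Rxra.

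Among the lists, myeloid transcription factors had the highest share of genes with a lost site: 13 of 26 (50%, against 14.9% of all genes), including Spi1, Cebpa, Cebpd, Irf8, Irf5, Irf1, Runx1, Klf4, Klf6, Nr1h3, Mitf and Id2. A lost site was as near to 21% of the 9963 genes tested and to 20.8% of the genes with a constant site. Near the 26 genes 16 lost and 64 constant sites were counted, so 20% of these sites were lost, against 12.5% over the sites near all genes. Cytokine and growth factor receptors had 13 of 30 genes with a lost site (43.3%) and 12.4% of the sites lost, the homeostatic microglia list 6 of 20 and 11.1%, antigen presentation genes 2 of 20 and 5.17%. A constant site was within 20 kb of 19 of the 26 myeloid factor genes (73.1%), 29 of the 30 cytokine and growth factor receptors (96.7%), 19 of the 20 homeostatic microglia genes (95%) and all 20 antigen presentation genes, against 55.2% of all genes.

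Spi1, the gene of PU.1 itself, had 1 lost site 1614 bp after its start (mm9, chr2:90938496-90938642) with H3K4me2, C/EBP beta and C/EBP alpha peaks in all 3 constructs and a Nmu PU.1 peak 2145 bp away. Its RNA was 47.8 and 70.2 RPKM in Nmu cells, 25.8 and 30.3 RPKM in Nwt cells and 26.9 and 28.7 RPKM in pCDH cells. The Nmu libraries lay above all controls (log2 fold change 1.03 ± 0.16, limma adjusted p = 0.0649, above the threshold). Cebpa, the gene of C/EBP alpha, had 3 lost sites and 2 constant sites, and 2.68 and 4.13 RPKM in Nmu cells, against 5.74 and 5.22 in Nwt cells and 5.635 and 5.88 in pCDH cells (-0.61 ± 0.18, limma adjusted p = 0.155). Cebpd, encoding C/EBP delta, had 10.4 and 4.90 RPKM in Nmu cells and at most 0.734 in any control (2.32 ± 0.27), so it too met the expression limit only through the Nmu libraries. Id2, an inhibitor of helix-loop-helix factors, had 79.2 and 29.2 RPKM in Nmu cells and at most 8.99 in any control (2.51 ± 0.33, limma adjusted p = 0.0481). Cebpb had no lost site within 20 kb and 4 constant ones. Of the 13 factors near a lost site limma called Cebpd and Id2 higher and Mitf lower. Among all 23 tested genes of the list it called 2 higher and 2 lower, against 0.683% and 0.371% of all genes.

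Of the 29 tested genes with at least 3 lost sites limma called 0, and 10 (34.5%) passed an unadjusted p of 0.05, against 21.5% of all genes. Rxra, with 5 lost sites, 2 constant ones and 3 Nmu peaks within 20 kb, had 8.54 and 11.6 RPKM in Nmu cells, 16.7 and 13.8 RPKM in Nwt cells and 17.7 and 13.9 RPKM in pCDH cells (log2 fold change -0.58 ± 0.20, limma adjusted p = 0.192). Cul4b, a cullin of ubiquitin ligases with 4 lost sites and no constant one, had 6.21 and 4.88 RPKM in Nmu cells, 6.55 and 10.7 RPKM in Nwt cells and 6.185 and 10.0 RPKM in pCDH cells, close together at 24 h and apart at the second time. Dusp12 and Tbc1d14 had 4 lost sites each and log2 fold changes of 0.11 and -0.51. Gsn, the actin-severing protein gelsolin, had 3 and measured 21.5 and 46.9 RPKM in Nmu cells, 144 and 51.8 RPKM in Nwt cells and 165 and 49.9 RPKM in pCDH cells, a wide gap at 24 h and a small one at the second time. Myeov2, Tspan4 and Gorasp2 also had 3 lost sites and log2 fold changes of -0.01, 0.19 and 0.50.

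Genes with at least 2 lost sites and no Nmu PU.1 peak within 20 kb were led by Gorasp2, a Golgi stacking protein, with 24.2 and 24.5 RPKM in Nmu cells, against 14.6 and 20.7 in Nwt cells and 14.6 and 18.7 in pCDH cells. It was higher, and not lower, at both times (log2 fold change 0.50 ± 0.16, limma adjusted p = 0.18). Bambi, a decoy receptor of TGF-beta signalling with 3 lost sites, had 0.174 and 0.406 RPKM in Nmu cells, 2.02 and 1.65 RPKM in Nwt cells and 1.82 and 1.56 RPKM in pCDH cells (-1.10 ± 0.17, limma adjusted p = 0.0613). Eif4ebp1, an inhibitor of cap-dependent translation, had a lost site at -153 bp from its start with H3K4me2 in all 3 constructs and no Nmu peak within 36659 bp. Its RNA was 35.97 and 38.4 RPKM in Nmu cells, 32.6 and 37.4 RPKM in Nwt cells and 37.4 and 37.5 RPKM in pCDH cells, without separation of the groups. Stt3b and Thrap3, each with 2 lost sites, had log2 fold changes of 0.04 and -0.15.

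Several other receptor and signalling genes near lost sites lay above or below the controls without passing. Tnfrsf1b, the TNF receptor 2, with 2 lost sites, had 31.5 and 15.3 RPKM in Nmu cells, against 7.87 and 6.73 in Nwt cells and 7.89 and 6.815 in pCDH cells (log2 fold change 1.47 ± 0.22, limma adjusted p = 0.0613). Cxcr4, the receptor of CXCL12, had 3.50 and 4.62 RPKM in Nmu cells, against 9.40 and 7.545 in Nwt cells and 10.0 and 6.90 in pCDH cells (-0.90 ± 0.21, limma adjusted p = 0.105). Fcgr1, the high-affinity IgG receptor, had 10.3 and 11.7 RPKM in Nmu cells, against 3.15 and 7.55 in Nwt cells and 3.17 and 8.185 in pCDH cells (0.98 ± 0.24, limma adjusted p = 0.119). Vav1, an exchange factor of Fc receptor signalling, had 3 lost sites and a change of 0.62 ± 0.14 (limma adjusted p = 0.102). Cd14, the co-receptor of Toll-like receptor 4, and Bcl3, a nuclear inhibitor of NF-kB, were above the controls at both times (1.42 and 1.23; limma adjusted p = 0.116 and 0.0587). Of the 11 tested cytokine and growth factor receptors near a lost site, none was called, while 1 of the 21 tested genes of that list rose. Of the 28 tested Toll-like receptor pathway genes 5 rose, none of them among the 8 with a lost site. The share that rose over all genes was 0.683%.

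Primary cells give the levels of these genes outside the line, with 1 library per genotype and no test. Genes near lost sites had a median of 1.505 RPKM in Q175/175 and 1.65 RPKM in Q7/7 microglia, and of 2.39 RPKM in Q175/175 and 1.98 RPKM in Q7/7 BMDM. Marco was at 0.124 RPKM in Q175/175 and 0.134 RPKM in Q7/7 microglia and at 2.36 and 1.61 RPKM in BMDM of these genotypes. Ankrd37 was at 0.775 RPKM in Q175/175 and 0.846 RPKM in Q7/7 microglia, and at 3.38 and 8.37 RPKM in the BMDM. F13a1 had 3.035 RPKM in Q175/175 and 7.04 RPKM in Q7/7 microglia and 28.2 and 27.6 RPKM in the BMDM. Tnf had 40.1 RPKM in Q175/175 and 25.9 RPKM in Q7/7 microglia, and 38.2 and 39.4 RPKM in the BMDM. Spi1 had 30.7 RPKM in Q175/175 and 31.2 RPKM in Q7/7 microglia, and 44.99 and 23.4 RPKM in the BMDM. PU.1 binding in the primary cells was not analysed here.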

How the data were processed

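RNA-seq and ChIP-seq of mouse cells were aligned to mm9 with STAR 2.0.3e and Bowtie and handled with HOMER, per the submitters' processing notes. The authors deposited RPKM per transcript (their RNA depth is not given) and 1 peak list per ChIP library. Per the file headers, peaks were called by HOMER against an input named ThioMac-input-new, at 4-fold over input and over the local signal; the score of each peak in the deposited lists is 1. From these, overlaps (1 bp), distances and exact binomial intervals were computed with Python 3.11.15, and the RNA was fitted with limma 3.58.1 in R 4.3.3 on log2(RPKM + 1), with construct and time as terms. Genes needed a transcript of 200 bases, 1 RPKM in at least 2 of 6 libraries, and the transcript with the highest mean stood for its symbol. Fold changes of low genes are understated on this scale. Overlap counting and the fit were tested on simulated data. Same-time libraries of the 3 constructs share a time and nothing in the labels says they share a culture, nor that the 2 libraries of a construct are separate cultures. With construct and time as terms, the spread behind the p-values is how the differences between constructs vary between the 2 times. It is not a spread among replicates of the same time, and it may be technical. The sites and gene lists were chosen with earlier results of these data known. Genes were named by rule: the 8 largest changes in each direction among nearby genes beyond both controls at both times, the genes with at least 3 lost sites (at most 8), the called members and the 2 most changed of each myeloid list, genes with at least 2 lost sites and no Nmu peak (at most 6), and Spi1, Cebpa, Cebpb and Htt; the promoters shown, the sites highest in the lists and those named for a missing mark were chosen after their values were seen. The human huntingtin fragment was not measured on its own; mouse Htt had 3.80 and 3.79 RPKM in Nmu cells, against 3.62 and 2.94 in Nwt cells and 3.97 and 2.86 in pCDH cells. Alternatives are listed after the results.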

Additional observations from a re-analysis of the deposited data

Results flagged for a closer look

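In 4 of the named genes the Nmu library lay on opposite sides of both controls at the 2 times; each time has 1 library per construct, and the difference between times was not tested. Values are log2(RPKM + 1) in Nmu cells minus the mean of Nwt and pCDH cells. Mertk, a receptor for apoptotic cells, was -1.02 at 24 h and 0.23 at the other time. Cd86, a costimulatory ligand, was 0.48 at 24 h and -0.35 at the other time. Myeov2 lay at -0.45 at 24 h and at 0.42 at the other time, and Zfp655 at 0.33 at 24 h and at -0.74 at the other time.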

How the results depend on the processing

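The number of lost sites was 5864 with a larger overlap required (50% of the shorter peak), 5693 with gaps up to 100 bp allowed, and 5480 without sites that have a Nmu peak within 200 bp (added after seeing the data); these changed no share or count by more than its counting interval or 1.5 times. With gaps up to 1 kb as overlap, H3K4me2 covered 25.2% (Nmu), 26.2% (Nwt) and 27.7% (pCDH), C/EBP beta 6.92% (pCDH) and C/EBP alpha 4.50% (Nwt), with 9 genes higher and 11 lower against both controls, 4 higher against Nwt and 5 against pCDH. Within 10 kb 1247 genes were tested, with 10 higher (3 against Nwt, 4 against pCDH) and a median of -0.048. Within 50 kb 3867 were tested, with 36 higher (12 against Nwt, 13 against pCDH) and a median of -0.012. A pseudocount of 0.1 gave a median of -0.044 and 10 lower against Nwt and 10 against pCDH. With a pseudocount of 5 limma called 11 higher and 0 lower against both, 0 in either direction against Nwt or pCDH, and the median was -0.019. Without a filter 1 was higher and 0 lower, 0 against Nwt or pCDH, and the median was -0.015. With 1 RPKM required in all 6 libraries 7 were higher and 1 lower, 3 higher and 0 lower against Nwt, 4 higher and 0 lower against pCDH, and the median was -0.018. Without the time term, the replicate block, 12 were higher and 4 lower (6 of all genes), 1 higher and 0 lower against Nwt, and 0 lower against pCDH. Quantile normalization left 4 lower (10 of all genes), 0 against Nwt and 0 against pCDH. The causes were not tested. The count of lower calls near lost sites thus depends on the pseudocount, the filter, the time term, the normalization and single libraries.

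Leaving out 1 RNA library at a time gave 27 to 481 higher and 36 to 608 lower genes against both controls, 14 to 443 and 7 to 580 against Nwt, 13 to 444 and 1 to 578 against pCDH, and medians of -0.041 to -0.015. Under these the log2 fold change ran from -0.45 to 0.42 for Myeov2, -1.02 to 0.23 for Mertk, -0.64 to 0.087 for Tgfbr1, -0.35 to 0.48 for Cd86 and -0.74 to 0.33 for Zfp655. Quantile normalization put Eif4ebp1 at -0.036 and Stt3b at -0.021. Peak depth limits every absence from the Nmu list.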
